A study of Mus musculus with 3 samples.

Results

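The 10 genes described here belong to fat-cell formation and lipid handling, and were read in cultured mouse bone-marrow mesenchymal progenitors given different short hairpin RNAs (shRNAs). They are the transcription factor genes Pparg, Cebpa, Cebpb and Cebpd and the lipid-handling genes Fabp4, Lpl, Plin4, Cd36, Acsl1 and Dgat2. A probe set was taken where the platform table annotated it to exactly 1 of these genes, which gave 17 probe sets of 9 genes, out of 28898 probe sets of 17097 genes annotated that way. Acsl1 had no such probe set and is not analysed here. The cells, sorted by FACS and called PaS+ in the labels, came from 8-week-old mice of the strain given as C56Bl/6. They were kept in MesenCult medium at 1% oxygen for 7 days and transduced overnight with lentivirus, and RNA was taken 4 days after transduction. One array held cells given the control hairpin (shCTR), 1 held cells given the hairpin against HIF-1a (shHIF-1a) and 1 held cells given the hairpin against HIF-2a (shHIF-2a). HIF-1a and HIF-2a are the subunits of hypoxia-inducible factors that build up when oxygen is low. Low oxygen, the medium and lentiviral transduction were common to all 3 arrays, so none of them is compared here.

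Fat cells arise from mesenchymal progenitors through a relay of transcription factors. C/EBPβ and C/EBPδ act early and switch on PPARγ and C/EBPα, which then maintain each other and drive the genes of lipid uptake and storage. In marrow, progenitors that express some of these genes without holding fat droplets are a normal part of the stroma.

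Each value is an RMA intensity on a linear scale, and differences are given as log2 of the ratio between 2 arrays. With 1 array per hairpin there was no replicate, so no test was run, no p-value is given and a difference cannot be set against the spread between cultures. The highest of 23 nonspecific control probe sets, 3.47, served as the nonspecific level, and lower values are treated as unmeasured. Of the 17 probe sets, 14 lay above that level on all 3 arrays, so none of them was kept through a high value on 1 array alone. The other 3, of Cebpb, Fabp4 and Cd36, lay under it on every array and read between 1.11 and 2.02.

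Several facts of the whole arrays touch every value below. Hif1a, the target of the first hairpin, read 352.1 on the shCTR array and 332.4 on each of the others, so its level did not tell the hairpins apart. Its log2 difference from shCTR was −0.08 on both. Epas1, which encodes HIF-2a, was dim at 5.09, 9.44 and 3.21 in the order shCTR, shHIF-1a, shHIF-2a, the last under the nonspecific level. With that value raised to the level, Epas1 on the shHIF-2a array was −0.55 from shCTR and −1.44 from shHIF-1a on the log2 scale. Since Hif1a did not separate the hairpins and Epas1 was dim, the arrays are named by their labels (shHIF-1a-labelled and shHIF-2a-labelled). Every direction given depends on the labels being right. The 12 hybridisation control probe sets above the nonspecific level were dimmer on the shHIF-2a-labelled array, by a median log2 difference of −1.02 against shCTR (range −1.39 to −0.50) and −1.09 against shHIF-1a (range −1.59 to −0.64). Their part in the results was not tested. Among mesenchymal markers, 10 of 11 genes with a probe set were above the nonspecific level on each array.

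Promoter sequences from RefSeq (build GRCm38.p6) were given for 6 of the 10 genes. Shown are the 250 bases before the start of transcription for Plin4 and Cd36, 2 lipid genes that differed at least 2-fold between arrays, and for the most downstream of the 3 Pparg starts, whose window carries the C/EBP motif. Each is written 5′ to 3′ on the gene's own strand, with matches to the C/EBP motif TTGCNNAA in capitals. The Pparg window lies at chr6:115421816-115422065 on the plus strand, the Plin4 window at chr17:56109783-56110032 on the minus strand and the Cd36 window at chr5:17835897-17836146 on the minus strand.
Pparg: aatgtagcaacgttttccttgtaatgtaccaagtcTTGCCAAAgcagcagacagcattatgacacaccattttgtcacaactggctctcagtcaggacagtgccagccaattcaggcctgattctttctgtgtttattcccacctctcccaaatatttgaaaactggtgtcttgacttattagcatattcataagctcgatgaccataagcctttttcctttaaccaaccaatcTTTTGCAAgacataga
Plin4: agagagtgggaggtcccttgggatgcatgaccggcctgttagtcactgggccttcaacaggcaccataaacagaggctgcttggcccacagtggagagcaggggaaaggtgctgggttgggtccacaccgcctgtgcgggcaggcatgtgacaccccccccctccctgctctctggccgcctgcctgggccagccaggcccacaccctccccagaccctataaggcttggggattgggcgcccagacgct
Cd36: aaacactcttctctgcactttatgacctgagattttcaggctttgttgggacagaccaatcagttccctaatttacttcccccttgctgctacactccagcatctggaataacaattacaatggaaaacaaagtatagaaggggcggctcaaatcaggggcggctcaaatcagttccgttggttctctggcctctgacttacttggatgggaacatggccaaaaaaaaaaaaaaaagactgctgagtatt

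The Pparg window shown, picked because it carries the motif, held TTGCNNAA on the plus strand from −215 to −208 and on the minus strand from −16 to −9. Positions are counted from the start of transcription. Over all 32851 RefSeq windows of 300 bases (250 before and 50 after a start), 10.8% held this motif on either strand. The windows of the other Pparg starts held none, nor did those of Plin4, Cd36, Cebpa, Cebpb and Acsl1. The stricter palindrome TTGCGCAA, a subset of the same motif, was in 0.183% of all windows and in none of the genes' windows. The HIF core ACGTG, found in 19.6% of windows, was in none of them. GCGTG, found in 32.4%, was in the window of Cebpb, a window of Acsl1 and the most upstream window of Pparg, which is not shown. These shares are per window, whereas Pparg had 3 windows and Acsl1 had 2. The direct repeat bound by PPAR with RXR (0.0396% of windows) and the core of the interferon-stimulated element (3.44%) were absent from these windows. A match or its lack describes the letters of a window and says nothing about binding.

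The regulators stayed within 2-fold in every comparison. Pparg, the nuclear receptor that commits cells to the fat lineage, read 24.4 on the shCTR array, 24.7 on the shHIF-1a-labelled array and 20.1 on the shHIF-2a-labelled array. It was lowest with the HIF-2a hairpin, at a log2 difference of −0.28 from shCTR and −0.29 from shHIF-1a. The difference between shHIF-1a and shCTR was 0.01 as deposited and −0.13 after cyclic loess scaling, a rescaling that aligns the arrays along brightness. Cebpa, the partner that sustains Pparg, read 11.5, 12.0 and 11.5 in the same order. Its shCTR and shHIF-2a values were exactly equal, and its difference between shHIF-1a and shCTR, 0.06 as deposited, was −0.12 after loess.

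Cebpb, an early factor of the relay that also answers to inflammatory signals, had 2 measured probe sets. The brighter read 334.7, 356.9 and 334.7, again with equal shCTR and shHIF-2a values. The other, which covers several transcripts of the gene, read 166.1, 160.0 and 130.2, a log2 difference of −0.35 between shHIF-2a and shCTR. So the probe sets of Cebpb disagreed on whether shHIF-2a lay below control. Cebpd, the other early factor, read 282.9, 290.6 and 223.5, with log2 differences of −0.34 from shCTR and −0.38 from shHIF-1a on the shHIF-2a-labelled array.

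**Figure D1:**
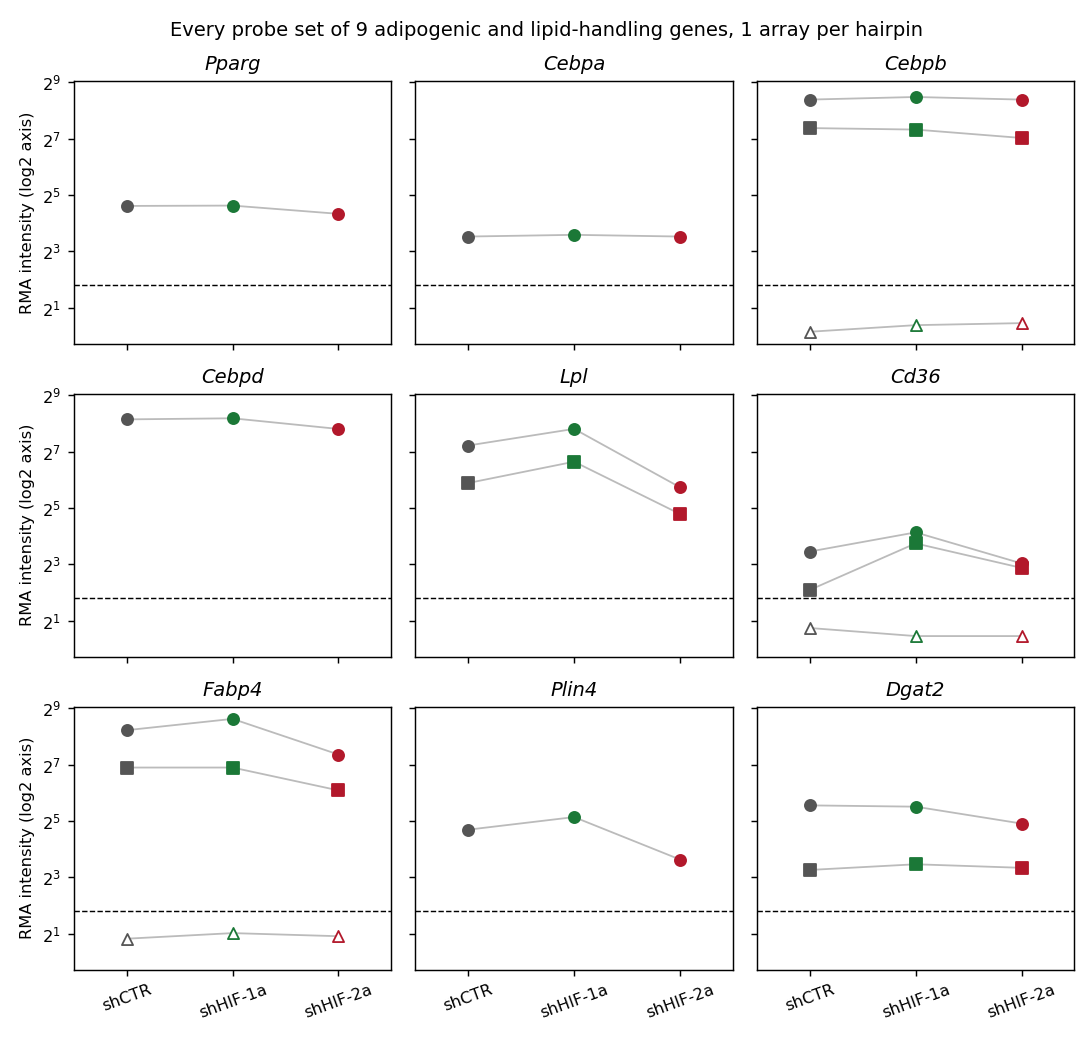
Each panel plots the RMA intensity (log2 axis) of every probe set of a gene on the shCTR, shHIF-1a and shHIF-2a arrays, with grey lines joining the values of a probe set and open symbols for values under the nonspecific level of 3.47 (dashed line). Lpl, Fabp4 and Plin4 were lowest on the shHIF-2a array on every measured probe set, whereas none of the 4 regulators (Pparg, Cebpa, Cebpb, Cebpd) reached 2-fold between any arrays.

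The lipid uptake genes Lpl and Cd36 spread much further. Lpl encodes lipoprotein lipase, the secreted enzyme that frees fatty acids from circulating triglyceride. Its brightest probe set read 148.7 on the shCTR array, 223.9 on the shHIF-1a-labelled array and 53.2 on the shHIF-2a-labelled array. A further probe set, which covers several transcripts, read 59.1, 99.8 and 27.6. Both put shHIF-1a highest and shHIF-2a lowest. Against shCTR the log2 differences were 0.59 and 0.76 with the HIF-1a hairpin, both under 2-fold, and −1.48 and −1.10 with the HIF-2a hairpin, which is 2.79-fold and 2.14-fold lower. Between the hairpins, Lpl was 4.21-fold and 3.62-fold lower with shHIF-2a. Lpl had the widest range of the 9 genes over the 3 arrays, 2.07 on the log2 scale.

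Cd36 encodes a membrane receptor that takes up long-chain fatty acids and is also found on macrophages and small-vessel endothelium. Its brightest probe set read 10.9, 17.5 and 8.17 in the order shCTR, shHIF-1a, shHIF-2a. The other measured probe set read 4.25, 13.4 and 7.32. They shared the highest array, shHIF-1a, but differed on the lowest. The log2 difference between shHIF-1a and shCTR was 0.68 on the first and 1.65, or 3.15-fold higher, on the second. That between shHIF-2a and shCTR was −0.42 on the first and 0.78 on the second, so no direction can be given for it. Between the hairpins both were lower with shHIF-2a, at −1.10 (2.15-fold) and −0.87. All these values were dim, and the shCTR value of the second was close to the nonspecific level.

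Fabp4 encodes the fatty acid carrier of the fat-cell cytoplasm, a classical target of PPARγ. Its brightest probe set read 298.1, 394.0 and 163.9, and the other measured one 118.9, 118.9 and 67.8. The shHIF-2a-labelled array was lowest on both, with log2 differences from shCTR of −0.86 and −0.81, short of 2-fold. Against shHIF-1a they were −1.27, or 2.40-fold lower, and −0.81. With the HIF-1a hairpin the first lay 0.40 above shCTR, while the second was exactly equal on the 2 arrays, or −0.06 after loess.

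The storage genes followed in part. Plin4 encodes a perilipin that coats newly forming lipid droplets. Its only probe set read 25.8 on the shCTR array, 35.1 on the shHIF-1a-labelled array and 12.4 on the shHIF-2a-labelled array. It was 2.08-fold lower with the HIF-2a hairpin than with the control hairpin, 2.84-fold lower than with the HIF-1a hairpin, and 0.45 above shCTR on the log2 scale with the latter. Dgat2, which performs the last step of triglyceride synthesis, read 46.9, 45.4 and 30.0 on its brightest probe set and 9.57, 11.002 and 10.1 on the other. The first put shHIF-2a lowest, at −0.64 against shCTR and −0.60 against shHIF-1a, whereas the second differed by 0.08 and −0.13. No Dgat2 probe set reached 2-fold.

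The genes described here were chosen with earlier results of these data known. In this and the later counts, the share over all probe sets is therefore a description and no independent yardstick. Counted together, 1 of the 14 measured probe sets was at least 2-fold higher on the shHIF-1a-labelled array than on the shCTR array, the dimmer Cd36 probe set, and 0 were lower. Over all 13028 probe sets above the nonspecific level on either of these arrays, 4.37% were higher by that much and 0.0537% lower. The count of higher probe sets is thus near what a list of this size holds at the background share. By sign, 11 were above 0, 2 below and 1 equal, beside 65.8% above, 15.2% below and 19.0% equal over all probe sets. The median log2 difference was 0.15, against 0.11 over all probe sets, so as a group the genes lay close to the rest of the array. After loess the medians were 0.08 and 0.02, with 9 above 0 and 5 below.

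Between shHIF-2a and shCTR, 3 of 14 probe sets were at least 2-fold lower (both of Lpl and that of Plin4) and 0 were higher. The background ran the other way, with 0.447% of 13208 probe sets lower and 8.18% higher. By sign, 10 of the 14 were below 0, 2 above and 2 equal, beside 18.5% below over all probe sets. The median was −0.39, against 0.15 for all probe sets. Loess moved the median of all probe sets by over 0.1, to 0.02, and that of the 14 to −0.55, so the distance between them changed little. Among probe sets of at least 16 on either array, where dim probe sets weigh less, 3 of 10 were lower by 2-fold, beside 0.6% of 8504. At a minimum of 64 it was 1 of 6, a probe set of Lpl, beside 0.684% of 3508. The shHIF-1a and shHIF-2a comparisons share the shCTR array.

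The comparison of shHIF-2a with shHIF-1a leaves that array out. All 14 probe sets were lower with the HIF-2a hairpin, beside 25.0% of 13190 probe sets, and the count was also 14 after loess. The part that the choice of genes, made with earlier results known, had in this excess was not tested. At least 2-fold lower were 5 of them, both of Lpl and 1 each of Plin4, Fabp4 and Cd36, and 0 were higher, whereas 0.728% of all probe sets were lower and 1.16% higher by that much. At a minimum of 16 it was 5 of 11, beside 0.897%. At a minimum of 64 it was 3 of 7, beside 1.04% of 3548. The median of the 14 was −0.71, against 0.00 for all probe sets. As a measure of technical disagreement, probe sets of the same gene scattered around their gene's mean difference in this comparison with a pooled SD of 0.20 on the log2 scale (3031 genes). The differences of Cebpa (−0.06), of the brighter Cebpb probe set (−0.09) and of the dimmer Dgat2 probe set (−0.13) were smaller than that SD. The same SD was 0.31 between shHIF-1a and shCTR and 0.39 between shHIF-2a and shCTR. The shHIF-2a differences from shCTR of Pparg, Cebpa, Cebpb and Cebpd were all smaller than the latter. None of these SDs measures the spread between cultures.

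**Figure D2:**
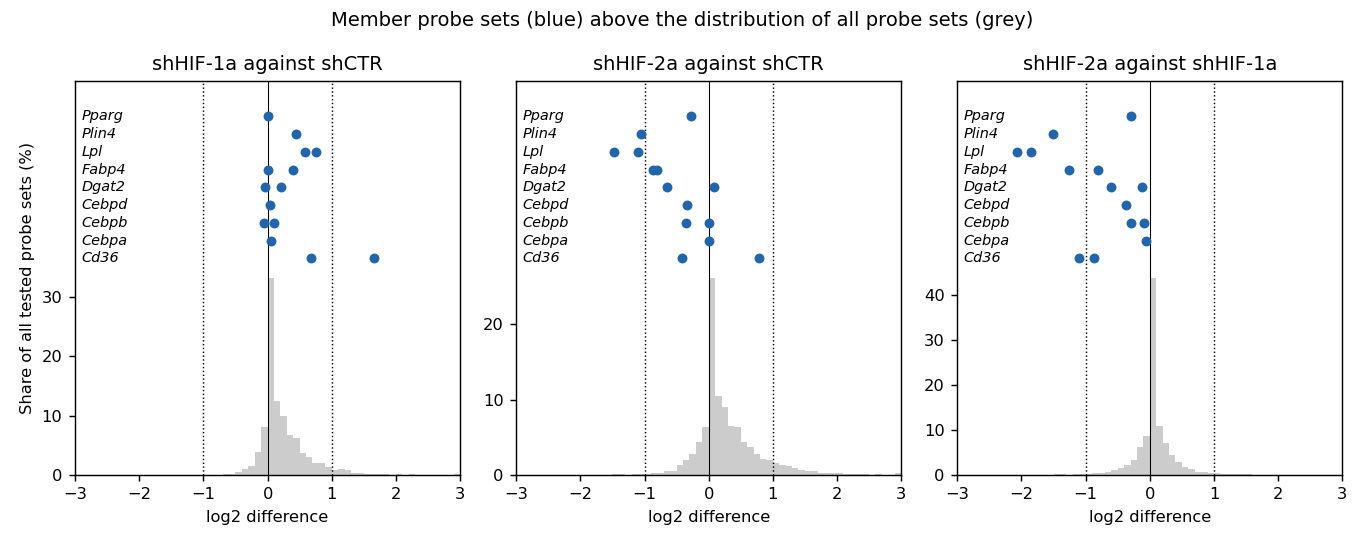
For each comparison, blue points give the log2 difference of the 14 measured probe sets, a row per gene, above grey bars that give the share (%) of all tested probe sets in bins of 0.1, with differences beyond 3 placed in the end bins and exactly equal values in the bin just right of 0. Dotted lines mark 2-fold. In the right panel all 14 points lie left of 0, with 5 beyond the dotted line.

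By array, the shHIF-1a-labelled array was the highest for 11 of the 14 probe sets and the shHIF-2a-labelled array for none. The latter was strictly the lowest for 10. Over the 13265 probe sets above the nonspecific level on any array, shHIF-1a was highest for 18.1%, shHIF-2a highest for 40.7% and shHIF-2a lowest for 13.2%. The shCTR array was strictly the lowest for 55.4% of them and for 2 of the 14. The full order shHIF-1a, shCTR, shHIF-2a from high to low held for 7 of the 14, in Pparg, Cebpd, Lpl, Plin4, Fabp4 and Cd36, and for 6.5% of all probe sets.

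The genes whose pattern lay nearest to that of Lpl were found by the Euclidean distance between their pairs of log2 differences from shCTR, over 6229 other genes whose brightest probe set reached 16 on any of the 3 arrays. Fmod, a collagen-binding proteoglycan, came first at a distance of 0.28, reading 139.0, 201.0 and 60.3 in the order shCTR, shHIF-1a, shHIF-2a. Ccn5, a matricellular protein, followed at 0.31 with 106.7, 129.3 and 37.8, and Ptgfr, the receptor of prostaglandin F, at 0.32 with 28.1, 34.1 and 9.60. Plin4 ranked 8 of the 6229 at a distance of 0.45 and Fabp4 ranked 32 at 0.65. Dgat2 ranked 99, Cd36 111, Cebpd 287, Pparg 371 and Cebpb 1206, while Cebpa, which did not reach 16 on any array, was not ranked. The distance rests on 3 arrays that share shCTR and is a description.

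Related genes outside the 10 were taken from 5 lists, also chosen with earlier results of these data known. These genes were read on their brightest probe set, each list counted over its genes above the nonspecific level. They are set beside all genes read the same way, of which 4.02% were at least 2-fold higher and 0.0568% lower between shHIF-1a and shCTR, 7.49% and 0.518% between shHIF-2a and shCTR, and 1.18% and 0.834% between the hairpins. Of 10 measured genes of adipogenic transcription, 2 were at least 2-fold higher on the shHIF-1a-labelled array than on shCTR and 0 lower. They were the coactivator gene Ncoa1, at 4.62, 16.9 and 14.9, and the factor gene Ebf3, at 3.74, 8.77 and 5.57, both dim on the shCTR array. Ncoa1 was also past 2-fold with shHIF-2a, the only one of the list, and between the hairpins none was. Of 8 genes listed as restrainers of adipogenesis, only Sfrp1 was past 2-fold. It encodes a secreted Wnt antagonist and, since Wnt signals hold back fat-cell formation, is better known for favouring it. It was 2.86-fold lower with shHIF-1a and at least 3.16-fold lower with shHIF-2a, at 10.96, 3.83 and 2.85, and was within 2-fold between the hairpins.

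Of 12 genes of fatty acid uptake and activation, Fabp5, a carrier related to Fabp4, read 118.0, 108.4 and 51.1. It was 2.31-fold lower with shHIF-2a than with shCTR and 2.12-fold lower than with shHIF-1a. Lmf1, a factor needed for lipase maturation, read 6.06, 13.4 and 11.3 and was 2.20-fold higher with shHIF-1a, or 0.95 on the log2 scale after loess, under 2-fold. No other gene of that list, none of 8 genes of triglyceride synthesis and none of 9 genes of droplet coat and lipolysis reached 2-fold in any comparison. The median difference between shHIF-2a and shHIF-1a was −0.14 for adipogenic transcription and 0.00 for each of the other 4 lists, against −0.60 for the 9 genes described here. After loess it was −0.17 for adipogenic transcription and between −0.04 and −0.03 for the other 4.

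Some close partners of these genes were chosen for their roles after their values were seen. Rxra, the receptor that pairs with PPARγ, read 15.1, 21.0 and 15.2. Angptl4, a secreted inhibitor of lipoprotein lipase, read 403.8, 440.5 and 309.7, lowest with shHIF-2a at −0.38 from shCTR. Dgat1, the other enzyme of the last step of triglyceride synthesis, read 27.2, 35.7 and 23.9. Plin2, the perilipin found in most cell types, read 434.2, 453.6 and 565.2 and was highest with shHIF-2a, by 0.38 over shCTR. On that array Plin4 thus lay below shCTR and Plin2 above it. The Plin2 difference was smaller than the pooled SD of 0.39 between probe sets of the same gene.

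**Figure D3:**
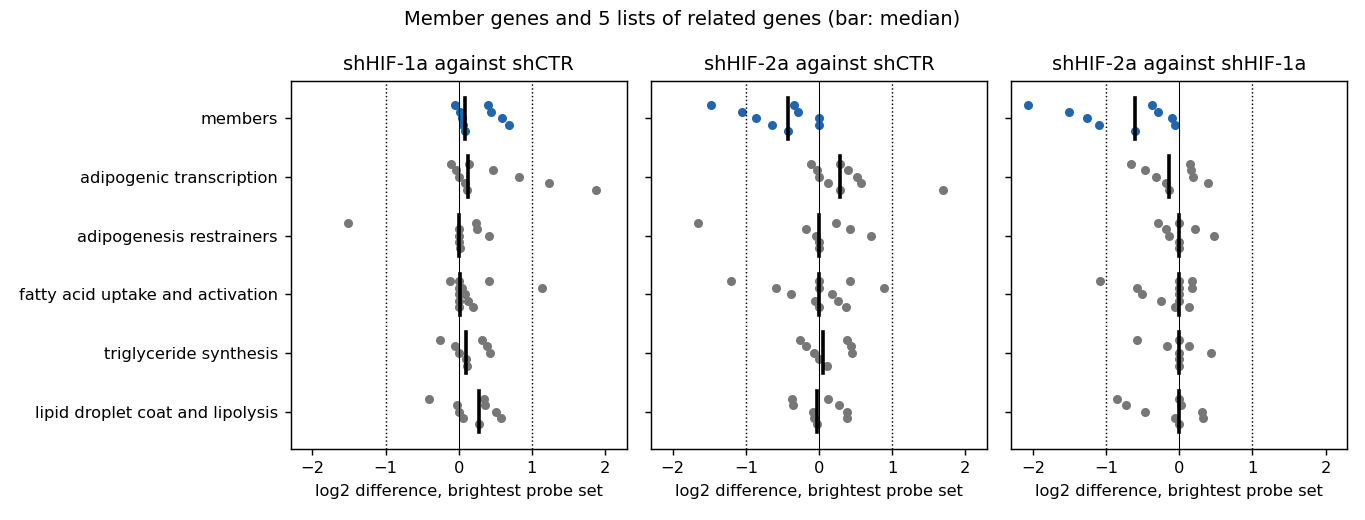
Points give the log2 difference of each gene's brightest probe set in the 3 comparisons, for the 9 genes described here (blue, labelled members) and for 5 lists of related genes (grey), with a black bar at each median and dotted lines at 2-fold. Between shHIF-2a and shHIF-1a the median of the 9 genes lies at −0.60 and those of the lists between −0.14 and 0.00.

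Of 8 markers of mature fat cells, 4 had a probe set, and Retn, Lep and Lipe lay under the nonspecific level on all 3 arrays. Adipoq, the adipokine adiponectin, read 3.004, 10.0025 and 3.50, so it was at least 2.88-fold higher with shHIF-1a than with shCTR and 2.86-fold lower with shHIF-2a than with shHIF-1a. Its shHIF-2a value was close to the nonspecific level and lay under it after loess. The summed level of the 4 markers, unmeasured values included, was 6.34, 14.8 and 7.75 in the order shCTR, shHIF-1a, shHIF-2a. Macrophages also express Lpl, Cd36 and Fabp4, and endothelium expresses Cd36 and Fabp4. Of 8 endothelial markers none passed the nonspecific level on any array, so their summed level of 9.82, 8.84 and 9.85 holds unmeasured values alone. Of 9 macrophage and blood markers 2 did, Cd14 at 93.4, 87.8 and 93.2, and Cd68 at 7.24 on the shHIF-2a-labelled array alone, while Ptprc, Itgam, Adgre1 and Csf1r stayed under it on every array. Their summed level was 103.5, 99.3 and 109.7. The mesenchymal marker list moved with the result, with a summed level of 1305, 1374 and 947.3, and between the hairpins 9 of its 10 measured genes were below 0, with a median of −0.40 and 3, Cxcl12, Col1a1 and Pdgfrb, past 2-fold. Between shHIF-2a and shCTR 2 of the 10, Cxcl12 at −1.79 and Col1a1 at −1.44, were at least 2-fold lower, or 3 with Thy1 after loess. Over all genes as deposited, 0.518% were that much lower in this comparison and 0.834% between the hairpins, where the median was 0.00. The part of these markers in the results was not tested. In a culture measured in bulk, fewer cells that express a gene and less RNA per cell cannot be told apart.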

How the data were processed

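The authors deposited 1 table of RMA intensities for 45141 probe sets on 3 arrays, made with RMA per the submitters' processing notes. No source used here gives its version or settings. The intensities are linear, as their range from 0.630543 to 1747.16 shows. RMA can give exactly equal values, which then hide small differences: 31.5% of tested probe sets were equal between the shHIF-1a and shHIF-2a arrays. The upper quartile was 9.81 for shCTR, 13.0 for shHIF-1a and 13.9 for shHIF-2a, so the distributions of the 3 arrays were not equal as deposited. What part this had in the differences from shCTR was not tested.

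Probe sets were named through the platform table where it gave 1 gene (28898, of which 28689 matched RefSeq by Entrez identifier). Those with several genes (551) or not listed (15588), and 104 controls, were left out. Values under 3.47 were raised to it before log2, and a fold against such a value is a lower bound. A probe set counted as tested in a comparison when it reached 3.47 on either array. Each array was 1 group, taken from its title, so differences of at least 2-fold were counted without a test. With so few arrays, precision is limited by their number. The counting was checked on simulated data. A gene's brightest probe set was that of the highest mean log2 value. Genes named are the 10 members, Hif1a and Epas1, list genes past 2-fold, defining markers of other cell types, the 3 genes nearest to the member of the widest range and, outside that rule, Rxra, Angptl4, Dgat1 and Plin2. The members and lists were chosen with earlier results of these data known. Cyclic loess came from limma 3.58.1 in R 4.3.3, and the rest from Python 3.11.15 with pandas 2.3.3.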

Additional observations from a re-analysis of the deposited data

How the results depend on the processing

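Alternatives were no floor, each array's own nonspecific level as floor, a minimum of 16, cyclic loess and 32 added before log2, and for genes the mean of all probe sets. With 32 added, which shrinks differences of dim probe sets, the probe sets at least 2-fold apart were 0 in place of 1 for shHIF-1a against shCTR, 1 in place of 3 for shHIF-2a against shCTR and 3 in place of 5 for shHIF-2a against shHIF-1a. A minimum of 16 left 0 in the first comparison, since it removes the dim Cd36 probe set. A minimum of 64, chosen after seeing the data, left 0, 1 and 3 in the same order, of 7, 6 and 7 probe sets. The counts were otherwise 1, 3 and 5. In shHIF-2a against shHIF-1a all 14 probe sets were below 0 under each alternative that kept 14, as were the 11 left at a minimum of 16. Without a floor 15 of 17 were.

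Of 96 alternative values for single genes, 4 changed sign, none of them for a difference of 2-fold or more. With the mean of all probe sets, Cd36 was 0.12 in place of −0.42 for shHIF-2a against shCTR, and Dgat2 was 0.08 in place of −0.05 for shHIF-1a against shCTR. The others were Pparg and Cebpa after loess, given above. With 32 added, Plin4 was −0.38 for shHIF-2a against shCTR and −0.60 against shHIF-1a, both under 2-fold, while Lpl was −1.08 and −1.59. The mean of all probe sets gave −0.69 for Fabp4 and −0.66 for Cd36 between the hairpins, both under 2-fold. Probe sets under the nonspecific level count as 0 in that mean. No paired analysis was possible because each group holds 1 array, and no array could be left out.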
